A study of Drosophila melanogaster with 6 samples.

Results

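The genes described here encode the protein subunits of oxidative phosphorylation, the process by which mitochondria pass electrons from nutrients to oxygen and use the resulting proton gradient to make ATP. They were defined by symbol: those starting with ND-, UQCR-, COX and a digit, or ATPsyn, together with SdhA to SdhD, Cyt-c-p and Cyt-c1. The rule was set with earlier results of these data known. Of the 11982 genes to which the array annotation pairs a probe set of their own, 70 met this rule, and 60 of the 70 were bright enough to be tested among 8764 genes in all. By complex, the tested genes were 28 of complex I, 3 of complex II, 5 of complex III, 10 of complex IV and 14 of complex V. A further 16 genes that meet the rule by their RefSeq symbol were not analysed here, since the annotation pairs no probe set with them. Among these were SdhA, Cyt-c-p, the core proteins UQCR-C1 and UQCR-C2 of complex III, and the mitochondrially encoded COX1, COX2 and COX3.

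The samples were Drosophila melanogaster ovaries, whose transcripts were read on 6 one-colour arrays. The first group held 3 samples of bam[delta86] mutant ovaries, and the second held 3 samples of ovaries mutant for both stwl and bam. All 6 samples thus came from flies mutant for bam, which germline stem cell daughters need in order to differentiate, so the ovaries hold mainly undifferentiated germ cells beside their somatic cells. stwl encodes Stonewall, a DNA-associated protein that maintains germline stem cells. The stwl allele, the age of the flies and whether samples came from separate crosses were not stated in the labels. The p-values therefore reflect how far these samples differ from each other, and that variation may be technical only.

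Complex I accepts electrons from NADH and complex II, succinate dehydrogenase, accepts them from succinate within the citric acid cycle. Complex III and cytochrome c pass them on to complex IV, which reduces oxygen, and complex V is the ATP synthase driven by the proton gradient. In the Drosophila ovary, germline differentiation has been tied to the build-up of the respiratory chain and of ATP synthase, and many respiratory subunits have duplicated forms best known from the testis.

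The arrays differed between genotypes in RNA quality and in markers of other cell types. The ratio of 5' to 3' signal ran from 0.129 to 0.183 in bam and from 0.524 to 0.675 in stwl bam for actin, from 0.0798 to 0.108 against 0.417 to 0.448 for eIF-4a, and from 0.124 to 0.152 against 0.258 to 0.374 for GAPDH. The genotypes did not overlap for any of these 3 controls, for which an exact two-sided permutation test cannot go below 0.1. Of 18 tested muscle genes 8 rose and 2 fell, and their summed normalized intensity ran from 43670 to 46946 in bam and from 48281 to 62149 in stwl bam. Of 13 haemocyte genes 0 rose and 7 fell, with sums of 15092 to 16531 and 9379 to 12986. In the fat body list 3 of 13 rose and 3 fell, with sums of 40958 to 44827 in bam and 26327 to 43393 in stwl bam. In the follicle cell list 1 of 12 rose and 2 fell (sums of 3911 to 4457 and 4109 to 5283), and in the germ cell list 3 of 12 rose and 3 fell (12380 to 13100 and 11297 to 13105). Of 16 testis genes on the array 9 could be tested, 0 rose and 1 fell, and dj, Mst84Da, Mst87F, nht and sa lay below background on all arrays. The sums of the testis list were 822 to 944 in bam and 876 to 1001 in stwl bam. They and the 16 include svp, which was not itself listed. It was matched as a synonym of the listed name don, and could not be tested. The part of RNA quality and cell makeup in the results below was not tested, and in ovary RNA fewer cells of a type cannot be told apart from less RNA per cell. The stwl probe set read -0.31 ± 0.24 (SE) on the log2 scale with a limma adjusted p of 0.396, and the bam probe set rose by 1.29 ± 0.26. How these probe sets lie to the mutations is not known here.

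The subunit genes were mostly higher in stwl bam ovaries, and unevenly so by complex. Of the 60 tested, 24 rose and 2 fell in limma at an adjusted p under 0.05, or 40% and 3.33%, beside 11.1% and 13.0% of all 8764 genes. Their median log2 change was 0.21 and that of all tested genes was -0.04. The 3 stwl bam arrays all lay above the 3 bam arrays for 32 of the 60 genes and all below for 8, beside 19.6% and 23.1% of all genes. In either direction these are 26 calls beside 24.1% of all genes, and 40 separated genes beside 42.7%. All 3 tested genes of complex II rose, 13 of the 28 of complex I rose and 1 fell, and 6 of the 14 of complex V rose and 0 fell. Complex IV had 2 rises and 1 fall among 10 genes, and 0 of 5 genes of complex III passed in either direction. At an unadjusted p under 0.05 the same limma fit had 1 of these 5, UQCR-Q. The medians were 0.79 for complex II, 0.24 for complex I, 0.19 for complex V, and 0.01 for both complexes III and IV. Without the duplicated forms they were 0.15 for complex IV, 0.27 for complex I and 0.19 for complex V. No duplicated form was tested in complexes II and III.

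**Figure D1:**
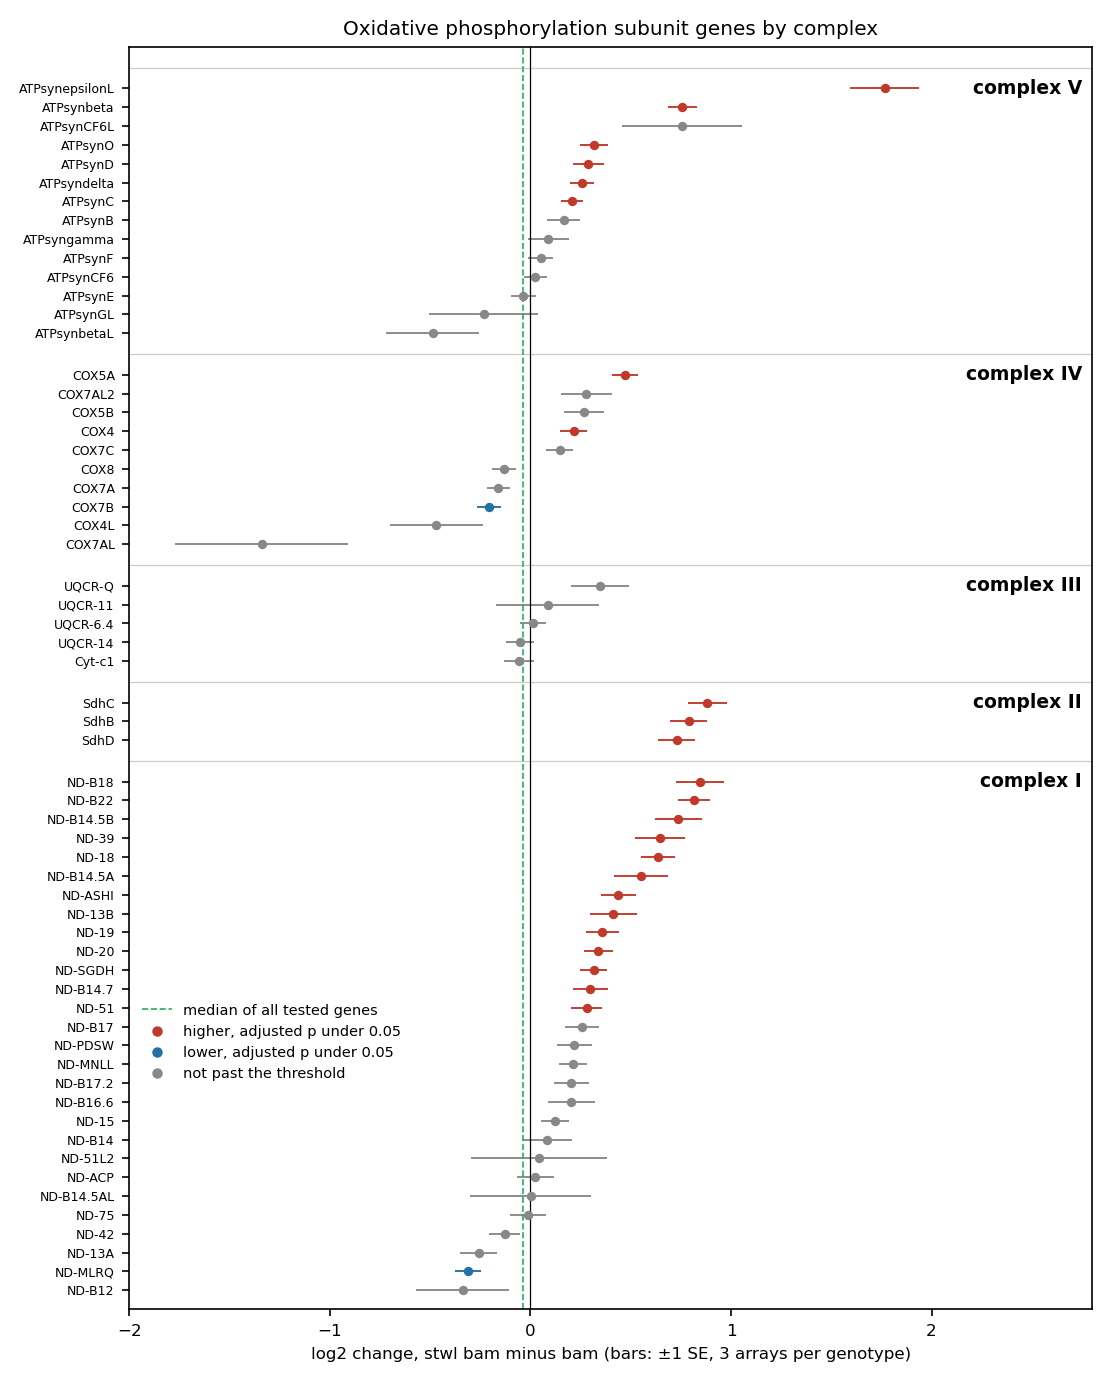
Log2 change (horizontal axis, stwl bam minus bam, points with ±1 SE, 3 arrays per genotype) of each of the 60 tested subunit genes, grouped by complex and coloured by limma call. Complex II sits between 0.73 and 0.88, complex I runs from -0.34 to 0.85, and ATPsynepsilonL of complex V stands apart at 1.77; the dashed line marks the median of all tested genes at -0.04.

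The counts depended on the arrays and on the scaling. Without bam replicate 1, 12 subunit genes rose (20.3%, beside 6.09% of all genes), without stwl bam replicate 3 there were 15 (25.4% beside 6.71%), and 1 gene in place of 2 fell without bam replicate 2 or 3 or without stwl bam replicate 2 or 3. With each array centred on its median, 3 of 60 rose (5% beside 3.81%), and without an intensity trend in the prior 13 rose (21.7% beside 7.55%). The median of the subunit genes exceeded that of all tested genes by 0.25, and by 0.23 to 0.27 over the 19 alternatives. The prior and the replicate blocks cannot move this difference, and centring an array shifts all its genes alike.

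**Figure D2:**
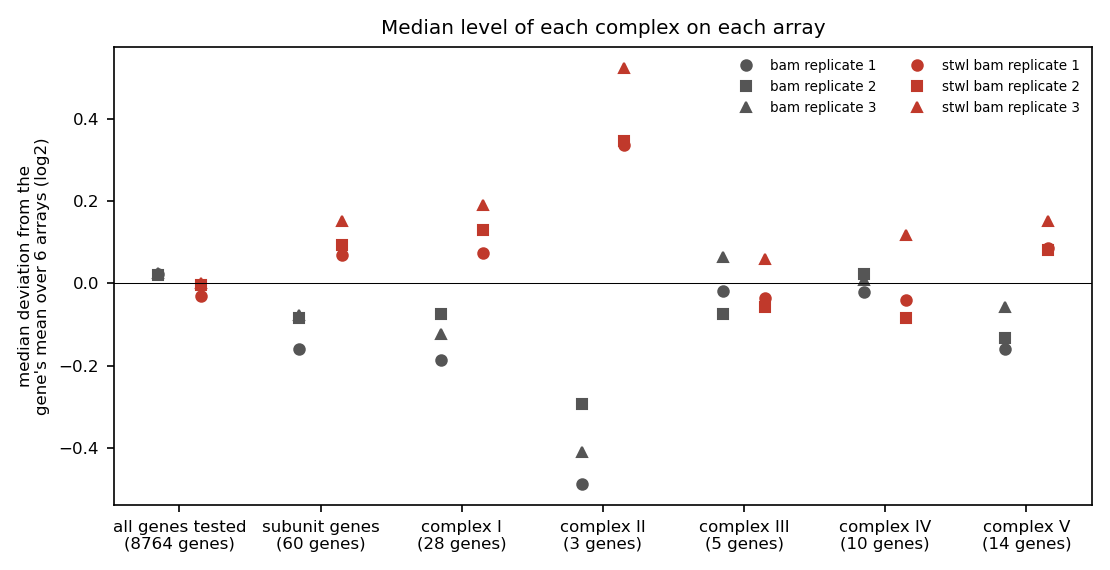
Median, over the genes of each set, of the deviation from a gene's own mean over the 6 arrays (vertical axis, log2), for each array (symbol and colour). The 3 bam arrays lie below the 3 stwl bam arrays for complexes I, II and V, with the widest gap for complex II (-0.49 to -0.29 against 0.34 to 0.53), and the genotypes overlap for complexes III and IV.

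Complex II was the complex in which every measured gene rose. It has 4 nuclear genes, of which SdhA, the flavoprotein, was not measured. SdhB, the iron-sulphur subunit that hands electrons on to the membrane part, had normalized intensities of 973, 1022 and 1166 on the bam arrays and 1775, 1760.4 and 1931 on the stwl bam arrays. SdhC, a membrane anchor of the complex, read 1619, 1884 and 1538 in bam and 2877, 3054 and 3361 in stwl bam. SdhD, the other anchor, read 1028, 1097 and 1012 in bam and 1667, 1619.8 and 1943 in stwl bam. For each of the 3 genes the lowest stwl bam array lay well above the highest bam array. On the log2 scale SdhC rose by 0.88 ± 0.10 (SE), SdhB by 0.79 ± 0.09 and SdhD by 0.73 ± 0.09, with limma adjusted p of 0.000751, 0.000948 and 0.00138. As folds these are 1.84, 1.73 and 1.66. SdhC kept its call in all 19 alternatives, and SdhB and SdhD lost theirs only with median centring, where they stood at 0.68 and 0.61.

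**Figure D3:**
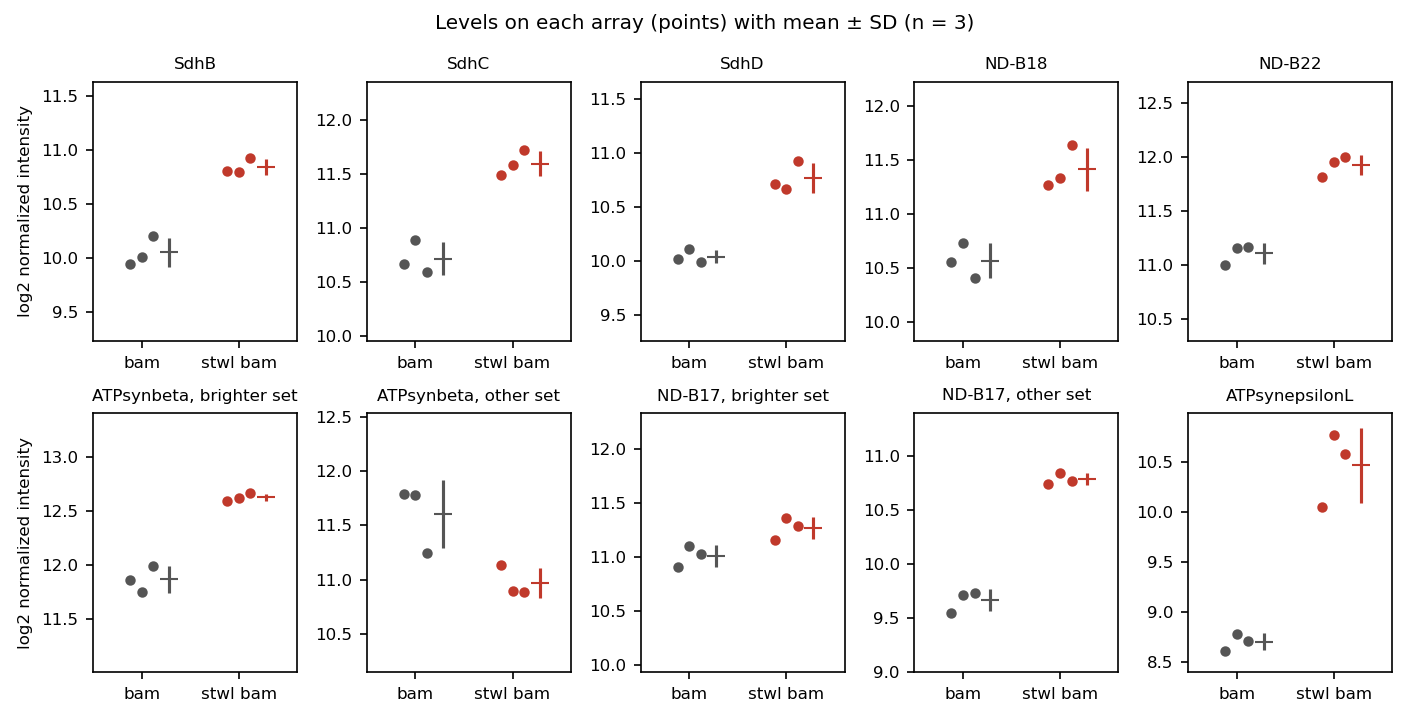
Log2 normalized intensity on each array (points) with the mean ± SD of 3 arrays beside them, for SdhB, SdhC, SdhD, ND-B18, ND-B22, ATPsynepsilonL and both probe sets of ATPsynbeta and of ND-B17 (the dimmer as "other set"); each panel has its own axis range. The stwl bam arrays lie above the bam arrays in every panel except the dimmer ATPsynbeta probe set, where they lie below.

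Complex I is the largest complex, with a matrix arm that oxidises NADH and a membrane arm that pumps protons. Of 10 tested matrix arm genes 6 rose and 0 fell, with a median of 0.31, and of 14 tested membrane arm genes 7 rose and 0 fell, with a median of 0.28, counts that stand beside the 11.1% and 13.0% of all genes. In the matrix arm, ND-39 read 973, 1048 and 1078 in bam and 1322, 1766 and 1819.6 in stwl bam, a rise of 0.65 ± 0.13 (SE). ND-18, the fly counterpart of human NDUFS4, which stabilises the NADH-oxidising module, read 806, 768 and 747 in bam and 1187, 1145 and 1295 in stwl bam, a rise of 0.64 ± 0.09. The remaining rises in this arm were ND-B14.5A by 0.55 ± 0.13, ND-13B by 0.41 ± 0.12, ND-20, a core subunit that carries an iron-sulphur cluster near the quinone site, by 0.34 ± 0.07, and ND-51, the subunit that binds NADH and flavin, by 0.28 ± 0.08. The core subunit ND-75, which holds several iron-sulphur clusters, was at -0.01 with a 95% interval of -0.22 to 0.19. ND-13A, an accessory subunit of the same arm, was at -0.26 with a limma adjusted p of 0.0769, and its stwl bam arrays all lay below its bam arrays. ND-B14 was at 0.08 and ND-B17.2 at 0.20, neither past the threshold.

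All tested genes of the membrane arm encode accessory subunits, which do not themselves carry electrons, so the core subunits of this arm were not measured. ND-B18 read 1503, 1697 and 1356 on the bam arrays and 2462, 2581 and 3188 on the stwl bam arrays, and rose by 0.85 ± 0.12 (SE), with a limma adjusted p of 0.00219. ND-B22 read 2034, 2269 and 2296 in bam and 3602, 3952 and 4085 in stwl bam, and rose by 0.82 ± 0.08, with a limma adjusted p of 0.000438. ND-B14.5B read 1351, 1834 and 1372 in bam and 2435, 2622 and 2486 in stwl bam, and rose by 0.74 ± 0.12. The genotypes were separated for all 3 genes, by the least in ND-B14.5B, whose bam replicate 2 stood above the other two bam arrays. ND-ASHI rose by 0.44 ± 0.09, ND-19 by 0.36 ± 0.08, ND-SGDH by 0.31 ± 0.07 and ND-B14.7 by 0.30 ± 0.09. ND-B12 showed the lowest change, -0.34 ± 0.23, from a probe set between 94.6 and 206.7 whose arrays overlapped between genotypes. ND-42, ND-15, ND-B16.6, ND-MNLL and ND-PDSW ran from -0.13 to 0.22 and did not pass. ND-B17 depended on the probe set: the brighter read 0.26 ± 0.08 with a limma adjusted p of 0.0585, and the dimmer rose by 1.12 ± 0.08, from 742, 832 and 845 in bam to 1706, 1834 and 1743 in stwl bam.

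Beside the arms stood 2 duplicated forms, given with the others of their kind, and ND-ACP and ND-MLRQ. ND-ACP, the mitochondrial acyl carrier protein that also serves fatty acid synthesis, was at 0.02 ± 0.09, and its other probe sets were at 0.09 and 0.16. ND-MLRQ, whose human counterpart NDUFA4 is now placed in complex IV, read 8378, 7993 and 7732 in bam and 6565, 6076 and 6788 in stwl bam. It fell by 0.31 ± 0.06 (SE), with a limma adjusted p of 0.0106, and did not pass under any of the 3 other normalizations, where it was at -0.13 to -0.30, nor without an intensity trend in the prior. Calls of complex I that ended when an array was left out were those of ND-SGDH (0.30 without bam replicate 1), ND-B14.5A (0.50 to 0.55 without bam replicate 1 or 3), ND-20 (0.30 to 0.31 without bam replicate 1 or stwl bam replicate 3) and ND-19 (0.32 to 0.35 without bam replicate 1 or 3 or stwl bam replicate 3). ND-B14.7 lost its call without bam replicate 1 or 3 or stwl bam replicate 1 or 2 (0.26 to 0.29), and ND-13B (0.33 to 0.46) and ND-51 (0.24 to 0.32) without any array but stwl bam replicate 2.

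Complex III showed no called gene among the 5 measured, and with array weights 1, UQCR-Q, passed (0.41, limma adjusted p of 0.0456). Cyt-c1, the haem-bearing subunit that reduces cytochrome c, read 3115, 2766 and 3049 in bam and 2766, 2780.2 and 3036 in stwl bam. UQCR-14 was at -0.05 and UQCR-6.4 at 0.01, with 95% intervals of -0.21 to 0.11 and -0.14 to 0.16, and the interval of Cyt-c1 was -0.23 to 0.12. The arrays of the genotypes overlapped for all 5 genes. UQCR-Q had the largest change, 0.35 ± 0.14 (SE), with a limma adjusted p of 0.121 and its stwl bam replicate 2 within the bam range. UQCR-11 was dim, between 28.3 and 41.1, with 1 bam array below background.

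Complex IV was split. COX5A, a nuclear subunit on the matrix side, read 3590.2, 3843 and 3919 in bam and 5079, 5353 and 5317 in stwl bam. It rose by 0.47 ± 0.06 (SE) with a limma adjusted p of 0.00174, and lost its call only with median centring. COX4, a regulatory subunit, rose by 0.22 ± 0.07, a call that ended without any bam array or stwl bam replicate 3 (0.16 to 0.23) and under each other normalization. COX7B fell by 0.21 ± 0.06 with a limma adjusted p of 0.0372, but the call ended without any single array (-0.24 to -0.18), and a second bright probe set of COX7B was at 0.13 ± 0.06 with all stwl bam arrays above the bam arrays. COX5B was at 0.27, COX7C at 0.15, COX8 at -0.13 and COX7A at -0.16, none past the threshold (limma adjusted p of 0.0879, 0.146, 0.141 and 0.0787). The remaining probe sets of COX7B and COX7C were dim, with 5 and 4 of 6 arrays below background.

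Complex IV subunits that carry other names in the fly stood on both sides as well. These genes lie outside the symbol rule and were added after the values of the others were seen. levy, the COX6A subunit, rose by 0.42 ± 0.06 (SE), from 4174, 4151 and 4342 to 5597, 5723 and 5633. Its call was lost only with median centring, where it stood at 0.38. cype, the COX6C subunit, fell by 0.23 ± 0.06 with a limma adjusted p of 0.0253, a call lost without bam replicate 1 or 3 or stwl bam replicate 2 or 3 (-0.24 to -0.20) and under each other normalization.

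In complex V the catalytic beta subunit had the largest rise among the genes that are not duplicated forms, and its probe sets contradicted each other. The brighter ATPsynbeta probe set read 3711, 3442 and 4074 in bam and 6189, 6286 and 6484 in stwl bam, and rose by 0.76 ± 0.07 (SE) with a limma adjusted p of 0.000438. The dimmer probe set read 3547, 3506 and 2422 in bam and 2236, 1891 and 1884 in stwl bam, and fell by 0.64 ± 0.15 with a limma adjusted p of 0.0171. The call of the dimmer set ended without bam replicate 1 or 2 or stwl bam replicate 3 (-0.60 to -0.54), and that of the brighter in none of these. With median centring neither set passed, the brighter at 0.70 and the dimmer at -0.73. The dimmer also did not pass without an intensity trend in the prior. Averaged over both probe sets the gene stood at 0.06. Of 267 genes with several kept probe sets and a called change, 22 (8.24%) had calls in opposite directions, and of the subunit genes 1 of 4 did. Which transcript parts these probe sets cover is not known here, so the direction of ATPsynbeta is not settled.

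The other ATP synthase genes moved less. In the F1 head and central stalk, ATPsyndelta read 3998, 4050.2 and 4244 in bam and 4747, 4964 and 4987 in stwl bam, and rose by 0.26 ± 0.06 (SE). ATPsyngamma, the rotor shaft, was at 0.09 by its brighter probe set and rose by 0.42 ± 0.07 by the dimmer, with a limma adjusted p of 0.00509. blw, the alpha subunit, which the symbol rule leaves out, was at -0.01 ± 0.06 with its arrays overlapping. In the membrane part and peripheral stalk, ATPsynO rose by 0.32 ± 0.07, ATPsynD by 0.29 ± 0.08 and ATPsynC, which forms the rotor ring, by 0.21 ± 0.06. ATPsynB, ATPsynF, ATPsynCF6 and ATPsynE ran from -0.04 to 0.17 and did not pass. Calls ended without bam replicate 1 or stwl bam replicate 3 for ATPsynO (0.27 to 0.29), without these or bam replicate 2 for ATPsyndelta (0.24 to 0.25), without bam replicate 1 or 2 or stwl bam replicate 2 or 3 for ATPsynD (0.26 to 0.27), and without any bam array or stwl bam replicate 3 for ATPsynC (0.18 to 0.22).

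Duplicated forms, whose symbols end in L, L1 or L2, were mostly dim, with 1 that rose. Of the 18 on the array, 9 fell below the filter and 9 were tested, of which 1 rose and 0 fell, beside 11.1% and 13.0% of all genes. ATPsynepsilonL, the duplicated form of the epsilon subunit, read 384, 433 and 411 in bam and 1052, 1746 and 1528 in stwl bam. On the log2 scale the bam arrays averaged 8.70 ± 0.09 (SD, n = 3) and the stwl bam arrays 10.47 ± 0.38. The rise of 1.77 ± 0.17 (SE) had a limma adjusted p of 0.000438 and was called in all 19 alternatives. This is 3.40-fold, and the stwl bam arrays differed more among themselves than the bam arrays did, with replicate 1 lowest. sun, the epsilon subunit itself, was at -0.45 ± 0.26 with a limma adjusted p of 0.253 and overlapping arrays. Its probe set read only 134 to 305, dimmer than that of ATPsynepsilonL on every array, so its change is poorly measured.

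The other tested duplicated forms were dim, apart from COX7AL2. ATPsynbetaL lay between 32.7 and 64.6 and COX4L between 46.4 and 94.5, with changes of -0.49 and -0.47, while COX4 itself stood at 0.22. COX7AL was at -1.34 ± 0.43 (SE) with a limma adjusted p of 0.0549, with 1 bam array and 2 stwl bam arrays below background. Setting those arrays to background brought it to -0.51. COX7AL did pass with median centring, with the larger offset and with array weights (limma adjusted p of 0.0471, 0.0403 and 0.0309). ATPsynCF6L was below background in every bam sample and above it in every stwl bam sample, but the background of the bam arrays was too high for a fold to be given. It had no call, but passed without an intensity trend in the prior, with a limma adjusted p of 0.015. COX7AL2, which read 259 to 369, was at 0.28, ATPsynGL at -0.23, ND-51L2 at 0.04 and ND-B14.5AL at 0.00, none past the threshold. Below the filter were COX5BL, COX6AL, COX6AL2, COX6CL, ND-20L, ND-24L, ND-51L1, UQCR-11L and UQCR-14L, and ND-B8, which is not a duplicated form. On these 10 probe sets, stwl bam replicate 2 was above background for COX6AL and ND-20L, bam replicate 1 for UQCR-11L, and no other array for any of them.

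Some genes outside the symbol rule that encode a form of the same protein as another gene are given with that gene. These pairs were chosen after their values were seen, because 1 form rose, so they show nothing about paired forms in general. Cyt-c1L, the duplicated form of Cyt-c1, read 282, 331 and 312 in bam and 1396, 1569 and 1676 in stwl bam. It rose by 2.30 ± 0.11 (SE) with a limma adjusted p of 1.19e-05, while Cyt-c1 itself stood at -0.06. Ant2, an ADP/ATP carrier, read 684, 733 and 625 in bam and 2357, 2328 and 2435 in stwl bam, and rose by 1.79 ± 0.08, while its neighbour and main counterpart sesB was at -0.17 with a limma adjusted p of 0.13. Mpcp1, a mitochondrial phosphate carrier, rose by 1.42 ± 0.15, from 321, 323 and 342 to 774, 804 and 1149, while its paralogue Mpcp2 fell by 0.22 ± 0.07. The rises of Cyt-c1L, Ant2 and Mpcp1 kept their calls in all 19 alternatives, and the fall of Mpcp2, with a limma adjusted p of 0.0498, was lost without any array but stwl bam replicate 1 (-0.24 to -0.16) and under each other normalization. The duplicated SdhAL and SdhBL lay below background on all arrays, and SdhCL was at 0.27 with 2 bam arrays and 1 stwl bam array below it. Other forms had no call: Porin2 was at 0.69 beside porin at -0.06, Scsalpha2 at 0.50, Gpo2 at -0.33 and Gpo3 at 0.26. Porin2 lay below background on 3 bam arrays and 1 stwl bam array, and Gpo3 on 3 bam and 2 stwl bam arrays.

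**Figure D4:**
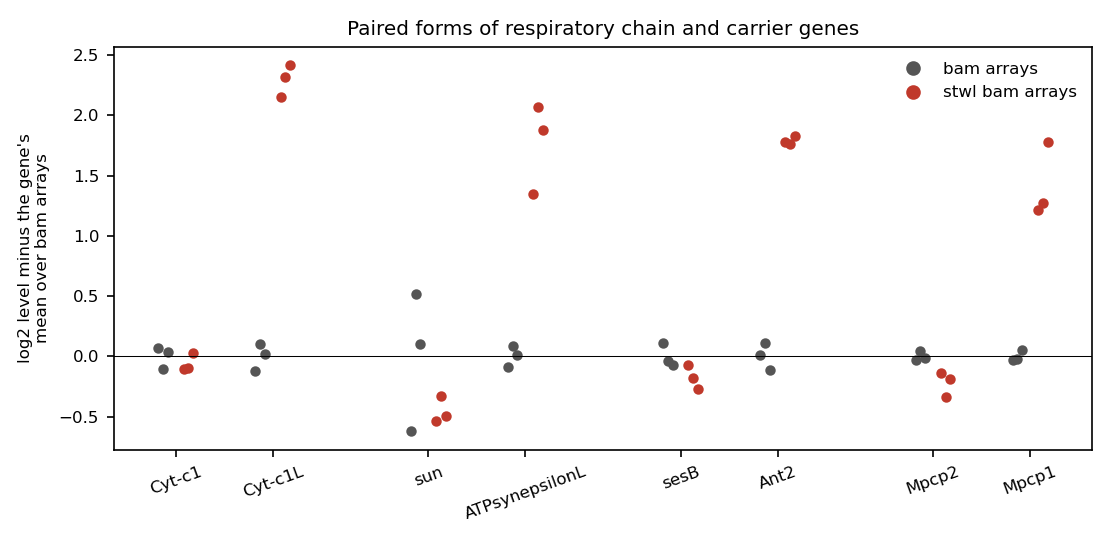
Log2 level on each array minus the gene's own mean over the bam arrays (vertical axis), for 4 pairs of genes encoding forms of the same protein, chosen after their values were seen because 1 form rose; grey points are bam arrays and red points stwl bam arrays. Cyt-c1L, ATPsynepsilonL, Ant2 and Mpcp1 lie above their bam arrays on all stwl bam arrays. Cyt-c1, sun, sesB and Mpcp2 were at -0.06, -0.45, -0.17 and -0.22, and the sun probe set was dimmer than that of ATPsynepsilonL on every array. Pairs without a rise, such as COX4 and COX4L, are not drawn.

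Genes that feed, assemble and maintain the chain gave mixed counts, to be read beside 11.1% higher and 13.0% lower among all genes. With median centring the rises were fewer on every list: 1 of the citric acid cycle genes, 2 carriers (Ant2 and Mpcp1) and 0 assembly factors, maintenance genes or dynamics genes. For the citric acid cycle and pyruvate dehydrogenase, 17 of 24 listed genes had a matched probe set. Among the unmatched were kdn, Fum1, Mdh2, Pdha and Pdhb. Of the matched genes, 5 lay below background on all arrays. Among the 12 tested genes 4 rose and 0 fell, with a median of 0.30. Idh3a, the catalytic subunit of the NAD-dependent isocitrate dehydrogenase, read 1340.1, 1328 and 1521 in bam and 3121, 3218 and 3381 in stwl bam, a rise of 1.21 ± 0.08 (SE) kept in all 19 alternatives. Its partner Idh3g rose by 0.57 ± 0.11, and Idh3b was at 0.22 with a limma adjusted p of 0.109. The succinyl-CoA synthetase genes ScsbetaA and Scsalpha1, whose enzyme supplies succinate to complex II, rose by 0.79 ± 0.11 and 0.37 ± 0.06. Among 17 carriers and alternative routes 5 rose and 1 fell. Beside Ant2 and Mpcp1 the largest were Tom40, the pore of the outer membrane import channel, at 0.58 and colt, an acylcarnitine carrier, at 0.45, the last lost without bam replicate 1 or 3 or stwl bam replicate 3 (0.38 to 0.48). Of 34 listed assembly factors 14 had a matched probe set and were tested, and of these 2 rose and 0 fell. Scox, a copper chaperone of complex IV, rose by 0.40 and sicily, an assembly factor of complex I, by 0.46. The call of sicily was lost without bam replicate 1 or 2 or stwl bam replicate 3 (0.41 to 0.43).

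The lists on mitochondrial DNA and on the shape and quality control of mitochondria held more falls than rises. Of 16 genes for mitochondrial DNA maintenance and transcription 1 rose and 5 fell. The rise was that of TFAM, by 0.36 ± 0.10 (SE) with a limma adjusted p of 0.0294. With 1 array left out, 0 to 1 gene of this list rose. PolrMT, the mitochondrial RNA polymerase, fell by 0.70 ± 0.13 (SE), a call kept in all 19 alternatives. PolG1, the catalytic subunit of the mitochondrial DNA polymerase, fell by 0.50 ± 0.13, ewg, the fly homologue of nuclear respiratory factor 1, by 0.54 ± 0.16, and bic by 0.72 ± 0.21. bic encodes a subunit of the nascent polypeptide-associated complex and clu, which fell by 0.42 ± 0.09, an RNA-binding protein needed for mitochondrial function. Both were counted on the list, though neither copies or transcribes mitochondrial DNA. Those calls ended without single arrays: bam replicate 1 or 3 or stwl bam replicate 2 for PolG1 (-0.50 to -0.44), these or stwl bam replicate 3 for ewg (-0.57 to -0.42), and any array but stwl bam replicate 2 for bic (-0.75 to -0.50). Of 17 dynamics and quality control genes 3 rose and 5 fell. The fusion gene Marf fell by 0.68 ± 0.11, the transport adaptor gene milt by 0.65 ± 0.13 and the chaperone gene Hsc70-5 by 0.63 ± 0.11, while Sod2, which removes superoxide in the matrix, rose by 0.56 ± 0.08. With 1 array left out, between 1 (without bam replicate 1) and 4 of the maintenance genes fell, among them 2 when bam replicate 3 was omitted and 3 when stwl bam replicate 2 or 3 was. The rises among dynamics genes were 1 without bam replicate 1 or 2 or stwl bam replicate 3, and those among assembly factors were 1 without the same arrays. With median centring 2 maintenance genes and 2 dynamics genes fell.

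Gene length and chromosome were set beside the calls, since the rule used neither. The tested subunit genes were short, with a median RefSeq genomic span of 1115 bases against 2595 for all tested genes, and length moved with the calls across all genes. With all genes split by length into 5 classes of about equal size, in the shortest class, up to 1282 bases, 16.6% rose and 3.78% fell, and in the longest class 6.77% rose and 23.1% fell. Within the shortest class 15 of 35 subunit genes rose (42.9%) and 1 fell, and the medians were 0.21 for these and 0.10 for all genes of that class. In the next class, up to 2064 bases, 5 of 14 subunit genes rose (35.7%), beside 15.2% of all genes there. The other classes held 3, 7 and 1 subunit genes, too few to read. The part of length in the rises was not tested beyond these counts. On the X chromosome 6 of 10 subunit genes rose and 0 fell, beside 15% and 12.2% of 1443 tested X-linked genes, and the 6 were ND-18, ND-20, ND-ASHI, ND-B14.5A, ND-B18 and ATPsyndelta. On 3R 7 of 13 rose (beside 10.4%), on 2L 4 of 12 (12%), on 2R 3 of 10 (9.39%) and on 3L 3 of 14 (9.92%), where both falls lay. ATPsynbeta was the only tested subunit gene on chromosome 4. Differences between chromosomes were not tested. By mean log2 level, 0 of the 9 subunit genes under 8 passed, beside 6.83% higher and 8.32% lower among all genes at that level. Of the 6 genes from 8 to 10, 4 rose (66.7%, beside 14% of all genes), and of the 29 from 10 to 12, 14 rose (48.3% beside 18.7%). Of the 16 at 12 or more, 6 rose and 2 fell (37.5% and 12.5%, beside 16.1% and 10.9%). A further 4 probe sets are shared between a subunit gene and another gene and were counted for neither. They read between -0.04 and 0.12, and none passed.

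**Figure D5:**
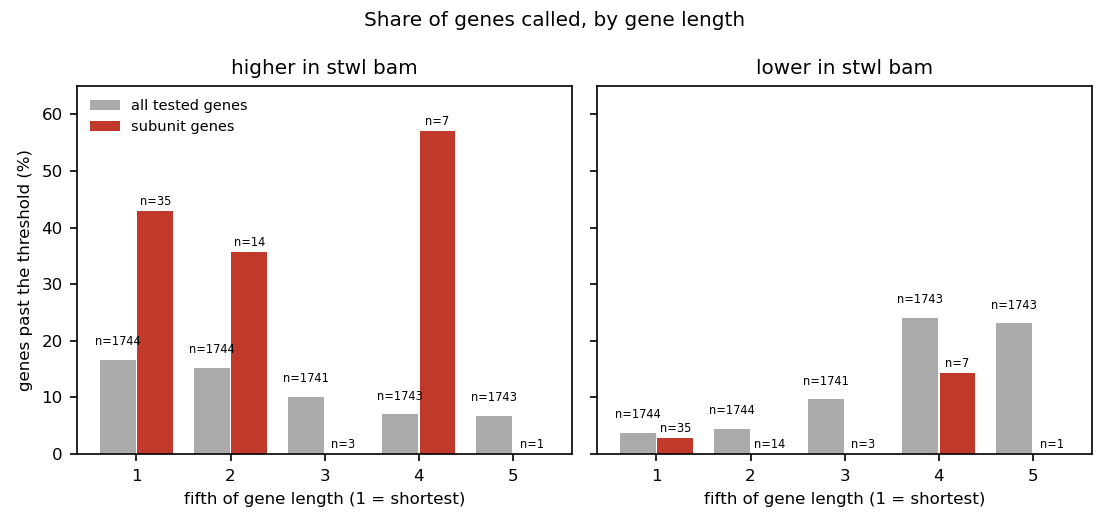
Share of genes past the threshold (vertical axis, percent) by class of gene length (5 classes of about equal size), for all tested genes (grey) and subunit genes (red), with the number of genes above each bar. Among all genes the share that rose was 16.6% in the shortest class and 6.77% in the longest, and the share that fell was 3.78% and 23.1%; the 3 longest classes hold only 3, 7 and 1 subunit genes.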

How the data were processed

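Total RNA of 6 ovary samples, 3 bam and 3 stwl bam, was hybridised to one-colour arrays. The deposited values are intensities per probe set, made by the authors with GCOS per the submitters' processing notes. The labels state neither its version nor its settings. The trimmed mean was 219.6 on bam replicate 1 and 249 to 250 on the others.

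The intensities of 18952 probe sets were quantile normalized without 183 control sets, and log2 was taken after adding 7.9, the 25th percentile of all deposited values, so changes of dim genes are understated. Kept were 11477 probe sets that reached their array's 40th percentile on at least 3 of 6 arrays. The annotation gave 1 gene for 13647 probe sets, several genes for 402 and no gene for 4720. RefSeq symbols of Release 6 were found for 13544 of the first kind. A gene is its kept probe set with the highest mean. The fit was limma 3.58.1 in R 4.3.3, with an intensity trend in eBayes and p-values adjusted by Benjamini and Hochberg across every kept probe set, at 0.05. It was run on data simulated from its own means and variances, which checks the code and not its fit to these arrays. Background is the 95th percentile of 44 control sets, 13.5 to 38.8 as deposited, and 50.8% to 64.5% of probe sets lay above it. The number of arrays limits the precision.

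Members and lists were chosen with earlier results of these data known. Named are all called members, all duplicated forms, the brightest and dimmest member of each complex, the uncalled members with the 3 largest changes either way, the mutated genes, and up to 4 called genes of each other list with the largest change. Other genes were named after their values were seen. Of the 60 probe sets tested, 39 were designed as unique, 10 for several transcripts of a gene and 11 for sequence shared between genes, so the last may read related genes. The alternatives changed the scaling, the offset, the filter, the prior, the weighting of arrays, a block for the replicate number, the choice of probe set, the background and, in turn, each array left out. No sequences are shown, since no table used here held them.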

Additional observations from a re-analysis of the deposited data

How the results depend on the processing

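Over 19 alternatives, 17 of them planned, 3 of the 26 called subunit genes kept their call throughout (ND-B18, SdhC and ATPsynepsilonL), 8 lost it only with median centring, 13 lost it without some single array and 23 under another normalization. The background floor and a block of replicate 1 against the rest were chosen after seeing the data. The count of rises was 3 with median centring and 13 without an intensity trend in the prior, against 24, and 12 to 24 with 1 array left out. The count of falls, 2 in the report, was 0 with the intensities as deposited, with rescaling to 1 trimmed mean and without the trend. It was 1 with median centring, with no filter and with the mean over probe sets, and 1 to 2 with 1 array left out. With the larger offset and with array weights it was 3. The fall with median centring was that of COX7AL, which is not among the 26 called genes. The cause was not tested. Fits with 1 array left out also rest on fewer arrays.

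As deposited, the medians were 0.29 for all subunit genes, 0.30 for complex I, 0.14 for complex III, 0.16 for complex IV and 0.33 for complex V. With median centring they were 0.12 for all, 0.13 for complex I and 0.68 for complex II. With rescaling they were 0.080, 0.10 and 0.27 for complexes III, IV and V. Complex IV was at 0.15 with the stricter filter, -0.13 with the mean over probe sets and -0.016 to 0.17 with 1 array left out. Complex V was at 0.13 with the background floor and 0.12 to 0.22 with 1 array left out.

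Among the genes followed through the alternatives, direction reversed only for those without a call. Some called genes of the other lists, such as TFAM and clu, were not followed singly. blw was at 0.12 as deposited, 0.062 rescaled and -0.055 to 0.017 with 1 array left out, and sesB was at 0.031 as deposited. With median centring ND-B14.5AL was at -0.0080, ATPsynCF6 at -0.063 and UQCR-6.4 at -0.027, and with the larger offset ND-B14.5AL was at -0.0064. With the background floor ND-51L2 was at -0.075, ND-B14.5AL at -0.14, ATPsynCF6L at -0.036 and SdhCL at -0.23. With 1 array left out, ND-51L2 ran from -0.12 to 0.35, UQCR-6.4 from -0.030 to 0.061, ND-B14.5AL from -0.22 to 0.17 and UQCR-11 from -0.017 to 0.20.

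Deviations of arrays with the same replicate number correlated at -0.05, -0.03 and 0.00, and those with unlike numbers at -0.06 to 0.10. No pairing by number was seen, though with 3 arrays per genotype this cannot show that samples were unpaired. With the replicate block, 23 subunit genes rose and 1 fell.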
